A study of Arabidopsis thaliana with 16 samples.

Results

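The comparison described here sets Arabidopsis thaliana seedlings of the double mutant mrg1 mrg2 against wild-type (WT) seedlings at 22 °C. It rests on 4 of the 16 libraries of the series, 2 for mrg1 mrg2 and 2 for WT, and on every gene that passed a filter on low counts, 20075 of 33602. All plants were Col-0, aged 6 days, grown on half-strength MS medium under continuous white light. The other 12 libraries, 2 per group, are mrg1 mrg2 at 28 °C, the triple mutant mrg1 mrg2 pif4 at 22 °C and at 28 °C, pif4 at both temperatures and WT at 28 °C, where 28 °C was a treatment of 3 h. They are used below to see where the same genes stood when neither the mutant nor the WT libraries at 22 °C took part. The labels name whole seedlings as the tissue, give no allele for any mutant and no word on separate cultures within a group, so the p-values measure only the spread between these libraries, which may be technical.

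MRG1 and MRG2 are related chromodomain proteins, the plant counterparts of yeast Eaf3 and of mammalian MRG15. They bind histone H3 methylated on the lysines that mark transcribed genes, and they associate with histone acetyltransferases of the MYST family (HAM1 and HAM2 in Arabidopsis) and with the NuA4 complex. In Arabidopsis they are known for promoting flowering under long days, and PIF4, a bHLH transcription factor, is known for driving growth in warmth and shade.

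Library totals were 9574845 and 9169092 counts in mrg1 mrg2 and 8367086 and 9445666 counts in WT, and ran from 7186066 to 11363353 counts over all 16 libraries. A count of 3 then corresponds to 0.264 to 0.417 CPM (counts per 1000000 counts of the library), the lowest level that could be told from 0. A nuclear rRNA gene, AT3G41768, took 6.48% and 8.23% of counts in mrg1 mrg2 and 7.97% and 8.17% in WT. On the second principal component of log2 CPM, which held 16.1% of the variance, the 2 mrg1 mrg2 libraries at 22 °C stood at -24.73 and -24.82, the triple mutant at -8.682 and -9.377, pif4 at 17.14 and 15.15, and WT at 26.68 and 26.08. The 2 libraries of each genotype lay close together and no genotype overlapped another.

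The targeted genes were checked first. MRG2 (chromosome 1, 599330 to 602199 in TAIR10.1) had 0.418 and 0.872 CPM in mrg1 mrg2, against 11.8 and 8.89 CPM in WT, a log2 change of -3.94 ± 0.33 (SE, adjusted p = 8.24e-12). MRG1 (chromosome 4, 17546577 to 17549559) had 6.68 and 4.47 CPM in mrg1 mrg2, against 20.1 and 21.9 CPM in WT, a log2 change of -1.87 ± 0.17 (adjusted p = 5.34e-11). Neither pair overlapped. Reads from MRG1 remained in the mutant at 0.274 times the WT level, and counts per gene do not show which part of the gene they came from. Of the 14 other members of a list of MRG partners and NuA4 subunits, 1, ING2 (a PHD finger protein of the ING family) was higher, with a log2 change of 0.41 ± 0.12 (adjusted p = 0.0111). That call is lost without WT replicate 1 (0.36) or mrg1 mrg2 replicate 1 (0.35). HAM1 changed by 0.28 and HAM2 by 0.03 on the log2 scale, without passing the test. PIF4 itself stood at 38.1 and 40.9 CPM in mrg1 mrg2 and 34.5 and 30.4 CPM in WT, and its call (log2 change 0.33 ± 0.10, adjusted p = 0.00991) is lost without WT replicate 2 (0.23) or mrg1 mrg2 replicate 2 (0.26).

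In mrg1 mrg2, 2469 genes were higher than in WT (12.3% of those tested) and 2449 were lower (12.2%), by edgeR's quasi-likelihood test at a Benjamini-Hochberg adjusted p under 0.05. Most of these differences were small: the median size of a called change was 0.45 on the log2 scale for genes that rose and 0.48 for genes that fell, and at least a 2-fold change was reached by 266 (1.33%) of the higher and 371 (1.85%) of the lower genes. Both mutant libraries lay beyond both WT libraries in 2458 of the higher genes (12.2% of those tested) and 2448 of the lower genes (12.2%). This was counted among called genes only, where it is nearly given by the call. It adds no separate support here or for the single genes below. Without WT replicate 2, 1637 genes were higher. The 26 gene lists described below spread from 85.2% of members lower (root hair genes) to 90.9% of members higher (antenna and photosystem genes).

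**Figure D1:**
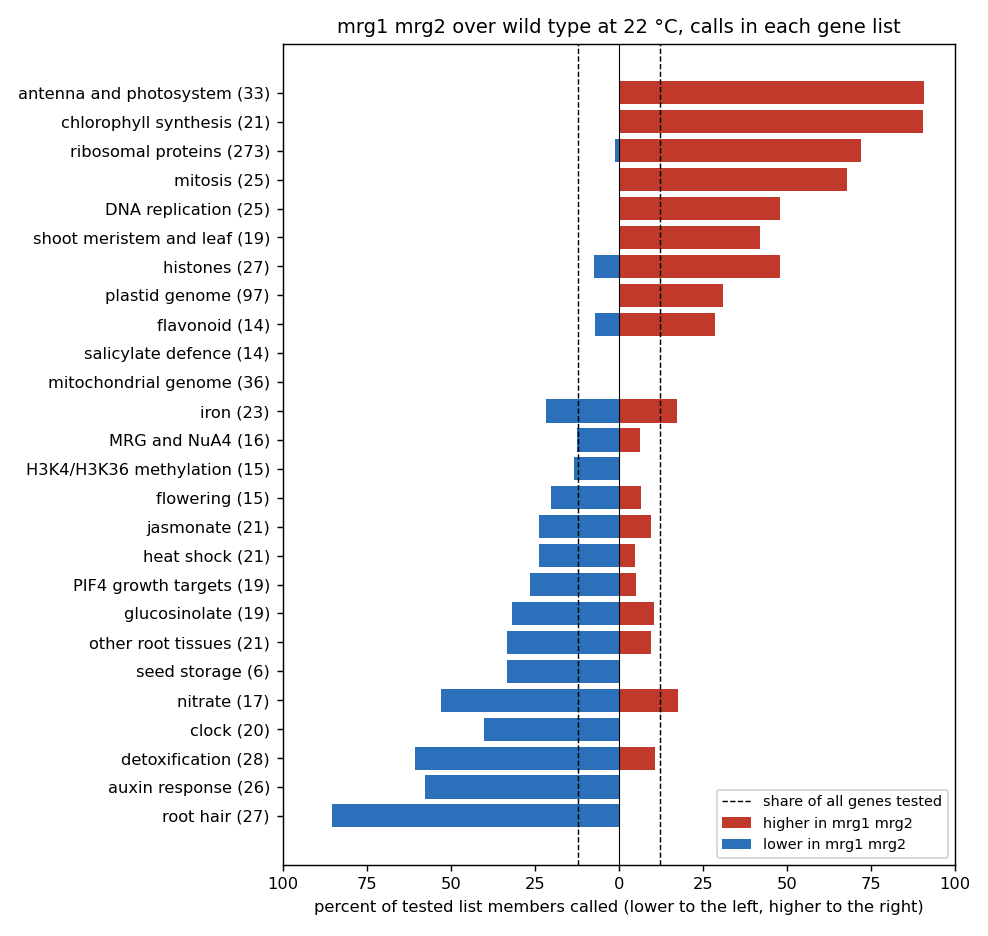
Percent of the tested members of each of 26 gene lists that were called higher (right) or lower (left) in mrg1 mrg2 than in WT at 22 °C, with the number tested in brackets. The dashed lines are the shares of all genes tested, 12.3% higher and 12.2% lower, and the root hair list at the bottom and the antenna and photosystem list at the top reach 85.2% lower and 90.9% higher.

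Among the genes with the largest rises was MRD1, a small gene named for its response in the methionine over-accumulating mto1 mutant. It had 35.1 and 32.5 CPM in mrg1 mrg2, against 0.120 and 0 CPM in WT, which is 634 reads against 1 read and a ratio of 603 (95% exact interval 108 to 23800, counting error only). MRD1 was also high in pif4 at 22 °C (26.6 and 28.3 CPM) and in the triple mutant (32.1 and 28.1 CPM), so that the WT libraries stood alone. HEI10, a RING protein of meiotic crossover formation, overlaps MRD1 on the other strand (chromosome 1, 19963267 to 19966952 against 19963047 to 19964712). It had 7.83 and 7.31 CPM in mrg1 mrg2, against 1.79 and 1.16 CPM in WT, and since the strand setting of the counting is not given, reads of the 2 genes cannot be told apart.

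ACC2, the plastid-targeted acetyl-CoA carboxylase, behaved otherwise. It had 77.1 and 68.5 CPM in mrg1 mrg2, against 11.4 and 12.1 CPM in WT, a log2 change of 2.67 ± 0.12 (adjusted p = 6.07e-19). In the triple mutant it had 12.0 and 15.3 CPM, against 12.2 and 13.1 CPM in pif4, and the difference between these 2 changes was called at -2.63 ± 0.19 (adjusted p = 1.17e-12). NAC103, a transcription factor of the response to misfolded proteins, had 12.1 and 9.60 CPM in mrg1 mrg2, against 2.03 and 2.12 CPM in WT. The triple mutant had 1.98 and 0.745 CPM of NAC103, against 0.823 and 0.690 CPM in pif4. For NAC103 the difference between the 2 backgrounds did not pass the test. ACC2 was thus high in mrg1 mrg2 and at the WT level in the triple mutant.

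Other genes among the largest rises included chr31 (also CLSY3), a chromatin remodeller of the RNA-directed DNA methylation pathway, with 7.73 and 6.54 CPM in mrg1 mrg2, against 0.956 and 1.27 CPM in WT (log2 change 2.70 ± 0.35, adjusted p = 1.24e-07). PYD4, an aminotransferase of uracil breakdown, had 8.15 and 6.00 CPM in mrg1 mrg2, against 0.956 and 1.48 CPM in WT. AT1G31690, annotated as a copper amine oxidase, had 47.5 and 45.6 CPM in mrg1 mrg2, against 10 and 10.1 CPM in WT (2.25 ± 0.15, adjusted p = 6.67e-15). None of these pairs overlapped, which was a condition for being counted among the largest rises.

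UGT73C1, a glucosyltransferase that conjugates cytokinins and xenobiotics, had 0.836 and 0.218 CPM in mrg1 mrg2, against 5.86 and 5.51 CPM in WT (-3.34 ± 0.46, adjusted p = 4.69e-07), and ChlAKR, an aldo-keto reductase that removes reactive carbonyls, had 0.522 and 0.872 CPM, against 5.86 and 5.08 CPM in WT. Both were as low in pif4, where UGT73C1 stood at 0.588 and 0.296 CPM and ChlAKR at 0.118 and 0.197 CPM. Among the other large falls, FLA6, XTH13 and XTH26 are genes of root hairs and fell by 3.29, 2.67 and 2.52 on the log2 scale, and AT1G19900, a glyoxal oxidase-related protein, had 1.88 and 2.73 CPM in mrg1 mrg2, against 11.8 and 11.3 CPM in WT.

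Root hair genes fell as a group. Root hairs are outgrowths of single epidermal cells; RHD6 and its relatives RSL2 and RSL4 are bHLH factors that start them and set their growth, RHD2 is the NADPH oxidase of the growing tip, and the other members are mostly cell-wall proteins. Of 27 listed genes, all of which passed the filter, 23 were lower (85.2%, against 12.2% of all genes tested) and the other 4 were not called, with a median log2 change of -1.70 against 0.004 over all genes. The summed level of the list was 170.0 and 176.0 CPM in mrg1 mrg2 and 546.0 and 540.0 CPM in WT.

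The wall proteins of the list are given first. PRP3, a proline-rich wall protein, had 14.8 and 16.7 CPM in mrg1 mrg2, against 63.2 and 63.7 CPM in WT (-1.97 ± 0.11, adjusted p = 8.24e-17). Its relative PRP1 had 3.55 and 5.02 CPM, against 23.1 and 21.9 CPM in WT (-2.35 ± 0.18, adjusted p = 9.58e-13). XTH14, which cuts and rejoins xyloglucan, had 13.9 and 12.4 CPM, against 44.7 and 50.3 CPM in WT (-1.81 ± 0.11, adjusted p = 9.26e-16). In all 3 genes the higher mutant library was far below the lower WT library. RHS13, a root hair specific wall protein, and AT4G26010, a peroxidase, fell by 1.82 and 1.73 on the log2 scale, and RHD2 had 8.67 and 11.3 CPM, against 23.2 and 23.3 CPM in WT (-1.18 ± 0.16, adjusted p = 2.76e-07).

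The regulators moved less clearly, and they were weakly expressed. RHD6, the earliest of them, had 3.24 and 3.05 CPM in mrg1 mrg2, against 4.18 and 3.92 CPM in WT, a log2 change of -0.32 ± 0.29 that did not pass the test (adjusted p = 0.468). RSL2 had 3.86 and 1.42 CPM, against 4.18 and 5.19 CPM in WT, and was called (-1.67) only without mrg1 mrg2 replicate 1. RSL4 had 0.836 and 1.74 CPM, against 2.75 and 4.98 CPM in WT; its call (-1.56 ± 0.45, adjusted p = 0.00869) is lost without WT replicate 2 (-1.06) or mrg1 mrg2 replicate 1 (-1.1). In bulk seedlings, fewer cells of a type and less RNA per cell cannot be told apart, and root hairs were not counted here.

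Markers of other root tissues had a smaller median change than the root hair genes, but some fell too. Lower were 33.3% of them, against 12.2% of all genes tested, and higher 9.52%, against 12.3%. Of 21 tested, 2 (NRT2:1 and PHT1;1) were higher and 7 lower, with a median log2 change of -0.18 and a summed level of 417.0 and 394.0 CPM in mrg1 mrg2 and 485.0 and 474.0 CPM in WT; without WT replicate 1 or mrg1 mrg2 replicate 2 the lower count was 4, and the higher count was 0 without WT replicate 2 or mrg1 mrg2 replicate 2 and 1 without either other library. The lower ones included CASP1, CASP2, CASP5 and ESB1, which build the Casparian strip of the endodermis, together with PHO1 and AMT1;2, which carry phosphate and ammonium. The log2 changes of CASP1 and CASP2 were -0.62 and -0.55. CASP5 had 0.418 and 0.436 CPM in mrg1 mrg2, near the floor, against 1.79 and 2.96 CPM in WT, a log2 change of -2.42 ± 0.59 (adjusted p = 0.0018) whose call is lost without WT replicate 2 (-2.0). ESB1 had 34.7 and 33.6 CPM in mrg1 mrg2, against 53.2 and 48.2 CPM in WT (-0.53 ± 0.10, adjusted p = 9.19e-05). SCR and SHR, which specify the endodermis, GL2 and MYB66, which pattern the root epidermis, and PLT1 and PLT2 of the root meristem were not called. What part a different share of root in the seedlings had in the fall of root hair genes was not tested.

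**Figure D2:**
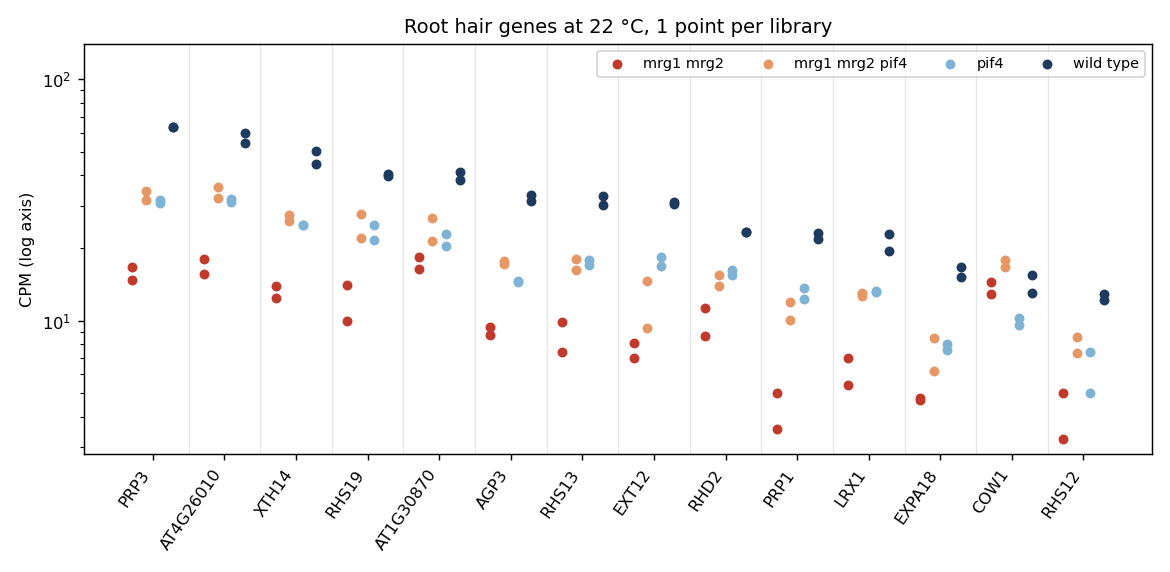
CPM (log axis) of the 14 root hair genes with the highest mean level in WT, 1 point per library, in mrg1 mrg2, mrg1 mrg2 pif4, pif4 and WT at 22 °C. PRP3, at the left, had 14.8 and 16.7 CPM in mrg1 mrg2, 34.5 and 31.6 CPM in the triple mutant, 31.6 and 30.6 CPM in pif4 and 63.2 and 63.7 CPM in WT.

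Setting mrg1 mrg2 against pif4 at 22 °C gives a comparison without the WT libraries, in which 1365 genes were higher (6.8%) and 1491 lower (7.43%). Genes beyond both WT and pif4 numbered 837 higher (4.17%) and 1033 lower (5.15%) in mrg1 mrg2. Both comparisons use the same 2 mrg1 mrg2 libraries, so their calls are not independent. Leaving out any 1 of the mrg1 mrg2 or pif4 libraries brought the genes higher than in pif4 to between 730 (without pif4 replicate 2) and 816 (without mrg1 mrg2 replicate 2), and those higher than in both to between 472 (without mrg1 mrg2 replicate 1) and 526 (without pif4 replicate 1). The genes lower than in pif4 were 914 and 979 without mrg1 mrg2 replicate 1 or 2 and 963 without pif4 replicate 1. Those lower than in both were 632 without mrg1 mrg2 replicate 1 and 687 without pif4 replicate 1. Of the 27 root hair genes, 15 were lower in mrg1 mrg2 than in pif4 and the others were not called, with a median of -0.85. PRP3 differed by -1.02 (adjusted p = 1.3e-08) and XTH14 by -0.96 (adjusted p = 5.64e-08). The triple mutant at 22 °C, in contrast, did not stand below pif4: 1 of 27 was higher and 1 lower, with a median of 0.03. The order of the summed level at 22 °C was thus mrg1 mrg2 (170.0 and 176.0 CPM), pif4 (300.0 and 288.0 CPM) and the triple mutant (326.0 and 293.0 CPM), which overlapped, and WT (546.0 and 540.0 CPM). The change with mrg1 mrg2 differed between the WT and the pif4 background in 23 of the 27 genes by the test of that difference, all of them positive. They include COW1 and RIC1, which were not called in mrg1 mrg2 over WT.

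Genes for ribosomal proteins rose together. Of 273 tested members, cytosolic and organellar ones included, 197 were higher (72.2%) and 3 lower (1.1%), with a median log2 change of 0.35, and their summed level was 41700 and 40700 CPM in mrg1 mrg2 and 33300 and 32600 CPM in WT. RPS6, the S6 protein of the small subunit and a target of TOR signalling, had 396.0 and 393.0 CPM in mrg1 mrg2, against 289.0 and 277.0 CPM in WT (0.52 ± 0.06, adjusted p = 1.84e-09). EMB2296, of the L2 family, had 540.0 and 531.0 CPM, against 409.0 and 368.0 CPM in WT (0.50 ± 0.05, adjusted p = 1.26e-09). PSRP3/1, a ribosomal protein of the plastid, had 285.0 and 269.0 CPM, against 189.0 CPM in both WT libraries (0.59 ± 0.06, adjusted p = 4.72e-10). In these 3 genes both mutant libraries were above both WT libraries. Of the 3 lower members (RPL18AA, AT3G14595 and AT5G15260), 0 were called without WT replicate 1 or mrg1 mrg2 replicate 2 and 1 without mrg1 mrg2 replicate 1.

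The promoters of ribosomal protein genes are known to carry the telo-box and site II elements, and TCP factors bind site II. The 250 bases before the annotated start of the 2 list members with the smallest p-values that hold both elements are shown, from RefSeq (TAIR10.1), with matches to AAACCCTA (telo-box) and TGGGCC (site II) on either strand in capitals. EMB3113, of the ribosomal S5 family, lies at chr2:14302497-14302746 on the minus strand and rose by 0.45 ± 0.05 on the log2 scale (398.0 CPM in both mrg1 mrg2 libraries, against 307.0 and 295.0 CPM in WT). AT1G18540, of the L6 family, lies at chr1:6378581-6378830 on the minus strand and rose by 0.46 ± 0.06 (319.0 and 312.0 CPM, against 241.0 and 232.0 CPM in WT). Each is written 5′ to 3′ in the direction of its gene.
EMB3113: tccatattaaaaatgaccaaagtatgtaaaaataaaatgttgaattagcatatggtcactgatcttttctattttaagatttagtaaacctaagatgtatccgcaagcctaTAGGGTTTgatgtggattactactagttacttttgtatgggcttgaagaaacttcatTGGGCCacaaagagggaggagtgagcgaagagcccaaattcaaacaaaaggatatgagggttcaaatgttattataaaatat
AT1G18540: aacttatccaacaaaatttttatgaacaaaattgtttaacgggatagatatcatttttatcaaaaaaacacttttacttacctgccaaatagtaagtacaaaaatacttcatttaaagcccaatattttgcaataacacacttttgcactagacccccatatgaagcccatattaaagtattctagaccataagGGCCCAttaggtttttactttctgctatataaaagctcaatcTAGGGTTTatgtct
The telo-box begins 139 bases before the start in EMB3113 and 14 bases before it in AT1G18540.

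Genes of cell division were also higher. Mitosis genes (25 tested) had 17 higher (68.0%) and the other 8 not called, with a median of 0.65 and a summed level of 498.0 and 480.0 CPM in mrg1 mrg2 and 309.0 and 319.0 CPM in WT. HIK, a kinesin of the cell plate, had 49.0 and 44.6 CPM in mrg1 mrg2, against 26.2 and 24.9 CPM in WT (0.92 ± 0.10, adjusted p = 2.01e-09). SYP111 (KNOLLE), the syntaxin that fuses vesicles at the cell plate, had 45.4 and 51.6 CPM, against 27.7 and 27.4 CPM in WT (0.86 ± 0.10, adjusted p = 1.42e-08). TPX2, which nucleates spindle microtubules, and CYC1BAT, a B-type cyclin, rose by 0.87 and 0.74. In these genes no mutant library fell among the WT libraries. pif4, set against the same WT libraries, had 18 of the 25 mitosis genes, 11 of 25 replication genes and 12 of 27 histone genes higher (5.8% of all genes), and 1 replication and 1 histone gene lower. Set against pif4, mrg1 mrg2 had a median log2 change of 0.02 over the mitosis genes (from -0.25 to 0.31) and of -0.03 over the replication genes (from -0.43 to 0.44), and 2 of the histone genes were lower.

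DNA replication genes and histone genes showed smaller shares. Of 25 replication genes, 12 were higher and the others not called (median 0.42), but 5 were higher without WT replicate 2. PRL (MCM7) had 45.6 and 46.1 CPM in mrg1 mrg2, against 28.2 and 33.0 CPM in WT (0.62 ± 0.10, adjusted p = 1.57e-05), and MCM6, another subunit of the replicative helicase, rose by 0.59 ± 0.13. MCM5 had 37.3 and 34.1 CPM, against 20.2 and 28.6 CPM in WT, and its call (0.58 ± 0.12) is lost without WT replicate 1 (0.37). Of 27 histone genes, 13 were higher and 2 lower (8 higher without WT replicate 2). The higher ones included 4 that encode the replication-linked histone H3.1, HTB2, of histone H2B (145.0 and 134.0 CPM, against 103.0 and 93.8 CPM in WT), and HTA11, an H2A.Z gene (0.72 ± 0.10). The 2 lower ones were AT4G40040, an H3.3 gene (-0.24 ± 0.05), and HIS1-3, the linker histone known to respond to drought and low light, which had 5.64 and 3.93 CPM in mrg1 mrg2, against 20.7 and 15 CPM in WT (-1.85 ± 0.20, adjusted p = 3.67e-09).

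Cell-cycle elements were searched in the same promoter window, and the list member with the smallest p-value that holds each is shown as above. CYC1BAT lies at chr5:1861704-1861953 on the minus strand, with 2 matches to CCAACGG, the letters searched for the MSA core of genes active at mitosis. Other forms of that core were not searched. MCM5 lies at chr2:3527501-3527750 on the minus strand, with 1 match to TTTCCCGC, the E2F site of genes active at replication, and 1 match to the site II letters TGGGCC.
CYC1BAT: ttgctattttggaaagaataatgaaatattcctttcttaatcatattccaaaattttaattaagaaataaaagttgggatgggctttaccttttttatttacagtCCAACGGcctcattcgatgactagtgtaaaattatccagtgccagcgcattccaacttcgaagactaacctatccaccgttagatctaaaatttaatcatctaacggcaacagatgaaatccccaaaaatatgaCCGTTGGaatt
MCM5: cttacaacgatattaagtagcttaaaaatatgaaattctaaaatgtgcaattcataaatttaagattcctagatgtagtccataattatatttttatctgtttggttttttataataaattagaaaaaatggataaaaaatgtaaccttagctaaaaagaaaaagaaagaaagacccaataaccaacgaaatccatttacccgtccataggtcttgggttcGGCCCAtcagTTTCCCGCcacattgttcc
The matches begin 145 and 11 bases before the start in CYC1BAT, and 29 (site II) and 19 (E2F) bases before it in MCM5.

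Most nuclear photosynthesis genes tested rose by small amounts. Of 33 antenna and photosystem genes of the nucleus, 30 were higher and 3 not called, with a median of 0.36 and changes from -0.05 to 0.53. LHCB2.2, a light-harvesting protein of photosystem II, had 1480 and 1430 CPM in mrg1 mrg2, against 1070 and 1030 CPM in WT (0.51 ± 0.04, adjusted p = 5.98e-12). PSAF, a subunit of photosystem I, rose by 0.41 ± 0.04, and PSBQ-2, of the oxygen-evolving complex, had 1060 and 1040 CPM, against 799.0 and 781.0 CPM in WT (0.45 ± 0.04, adjusted p = 2.14e-10). Chlorophyll synthesis genes had 19 of 21 higher and the others not called (median 0.37). The smallest p-values among them were those of PORB, which reduces protochlorophyllide in the light (0.86 ± 0.05), and GSA2, which makes aminolevulinate (207.0 and 203.0 CPM, against 134.0 and 133.0 CPM in WT). pif4 at 22 °C, set against the same WT libraries, had 32 of the 33 antenna and photosystem genes and 19 of the 21 chlorophyll genes higher (5.8% of all genes). Set against pif4, mrg1 mrg2 had 1 of the 33 higher and 13 lower.

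A pair of antenna genes outside the list, LHB1B1 and LHB1B2, went the other way. They encode light-harvesting proteins of photosystem II and lie beside each other on chromosome 2 (14524607 to 14525918 and 14522524 to 14523568). LHB1B2 had 4920 and 4690 CPM in mrg1 mrg2, against 5920 and 5910 CPM in WT (-0.26 ± 0.04, adjusted p = 2.02e-05). LHB1B1 had 2780 and 2690 CPM, against 3240 and 3070 CPM in WT (-0.16 ± 0.06, adjusted p = 0.0327), and its call is lost with DESeq2 (-0.17) and without WT replicate 1 (-0.12), mrg1 mrg2 replicate 1 (-0.17) or mrg1 mrg2 replicate 2 (-0.16). Both were lower as well in mrg1 mrg2 over WT at 28 °C (-0.49 for LHB1B2 and -0.76 for LHB1B1) and in the triple mutant over pif4 at 22 °C (-0.67 and -0.93) and at 28 °C (-0.81 and -1.18). In pif4 at 22 °C they stood above WT, by 0.77 for LHB1B2 and 1.1 for LHB1B1.

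The promoter of PSBQ-2 is shown because it holds both elements typical of light-regulated genes, the G-box (CACGTG), which PIF4 and its relatives bind, and the I-box (GATAAG). It lies at chr4:2673244-2673493 on the minus strand, with 2 G-boxes that begin 145 and 77 bases before the start and an I-box that begins 15 bases before it.
PSBQ-2: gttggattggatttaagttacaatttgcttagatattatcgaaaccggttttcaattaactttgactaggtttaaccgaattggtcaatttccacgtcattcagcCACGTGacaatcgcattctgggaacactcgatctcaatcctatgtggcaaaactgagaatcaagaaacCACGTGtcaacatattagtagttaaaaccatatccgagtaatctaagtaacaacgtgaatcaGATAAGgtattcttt
A match shows only that these letters are present in the window.

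Genes encoded in the plastid varied more between libraries. Of 97 tested, 30 were higher and the others not called (median 0.47), and 15 were higher without WT replicate 2 and 12 with DESeq2. The plastid gene ATCG00780 had 172.0 and 155.0 CPM in mrg1 mrg2, against 97.9 and 74.6 CPM in WT (0.96 ± 0.08, adjusted p = 1.19e-11). All plastid genes together took 2.38% and 2.98% of counts in mrg1 mrg2 and 2.18% and 2.08% in WT. Plastid transcripts mostly lack a long poly(A) tail, and the part that their capture had in this difference was not tested. Of 36 mitochondrial genes, edgeR's quasi-likelihood test and DESeq2 each called 0, and 1 was higher at an unadjusted p under 0.05.

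Markers of young shoot tissue had 8 of 19 tested members higher and the others not called (5 higher without WT replicate 1). PDF1, a gene of the shoot epidermis, had 291.0 and 281.0 CPM in mrg1 mrg2, against 195.0 and 211.0 CPM in WT (0.54 ± 0.06, adjusted p = 3.1e-09). YAB3, which specifies the lower leaf side, and AN3, a coactivator of leaf cell proliferation, rose by 0.50 ± 0.10 and 0.68 ± 0.14. The summed level of this list was 936.0 and 917.0 CPM in mrg1 mrg2 and 778.0 and 804.0 CPM in WT, which moves in the same direction as the division and photosynthesis genes, and its part in their rise was not tested.

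Detoxification genes were mostly lower. The list holds glucosyltransferases, glutathione S-transferases and reductases that respond to electrophiles and xenobiotics. Of 28 tested, 17 were lower (60.7%) and 3 higher (10.7%), with a median of -0.66. CYP81D11, a cytochrome P450 induced by such compounds, had 16.0 and 16.4 CPM in mrg1 mrg2, against 73.0 and 75.1 CPM in WT (-2.15 ± 0.12, adjusted p = 6e-17). OPR1, an oxophytodienoate reductase, had 89.9 and 76.8 CPM, against 214.0 and 213.0 CPM in WT (-1.32 ± 0.08, adjusted p = 1.54e-15), and GSTU19 fell by 0.60 ± 0.05. The 3 higher members were GSTF6, GSTU25 and AT2G21640, a marker of oxidative stress. GSTF6 had 21.5 and 22.6 CPM in mrg1 mrg2, against 9.20 and 7.30 CPM in WT (1.46 ± 0.16, adjusted p = 6.2e-09), and GSTU25 rose by 0.53 ± 0.14. AT2G21640 rose by 1.21, but it is not called when any 1 of the 4 libraries is left out (1.05 to 1.40).

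The fall of detoxification genes was not larger in mrg1 mrg2 than in pif4. At 22 °C the summed level of the list was 1050.0 and 1020.0 CPM in mrg1 mrg2 and 993.0 and 961.0 CPM in pif4. WT stood at 1660 and 1670 CPM at 22 °C, but at 988.0 and 898.0 CPM at 28 °C. Against pif4, 9 of the 28 were higher in mrg1 mrg2 and 2 lower, and CYP81D11 had 19.8 and 19.1 CPM in pif4. GSTF6 was higher in mrg1 mrg2 than in pif4 by 1.65 (adjusted p = 1.37e-09), and GSTU25 by 1.47 (adjusted p = 1.97e-09).

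Many auxin response genes fell. Of 26 tested, 15 were lower (57.7%) and the others not called, with a median of -0.47, and 9 were lower without WT replicate 2 or with DESeq2. Most of them encode Aux/IAA repressors, which auxin itself induces. IAA16 had 152.0 and 147.0 CPM in mrg1 mrg2, against 218.0 and 214.0 CPM in WT (-0.49 ± 0.06, adjusted p = 2.42e-08), and AXR3 (IAA17) had 60.1 and 50.3 CPM, against 88.2 and 79.8 CPM in WT (-0.57 ± 0.08, adjusted p = 1.52e-06). Of 19 growth genes linked to PIF4, 5 were lower (26.3%, against 12.2% of all genes tested) and 1 higher (5.26%, against 12.3%), with a median of -0.49. The lower ones were XTH15, of wall loosening (12.8 and 11.9 CPM, against 20.6 and 17.6 CPM in WT), KDR, LNG1, LNG2 and IAA19, and the higher one was TAA1, of auxin synthesis. This count rested on single libraries: 1 gene was lower without WT replicate 2 and 3 without WT replicate 1, and TAA1 (0.44 ± 0.16) was not called without WT replicate 1 (0.37), WT replicate 2 (0.52) or mrg1 mrg2 replicate 2 (0.22).

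Some heat shock genes were lower at 22 °C, and most of the list was not called. Lower were 23.8% of the list, against 12.2% of all genes tested, and higher 4.76%, against 12.3%. Of 21 tested, 5 were lower and 1 (HSP81-2) higher, with a median of -0.48, and 3 were lower without mrg1 mrg2 replicate 1. HSP70 had 17.9 and 16.1 CPM in mrg1 mrg2, against 37.6 and 36.3 CPM in WT (-1.08 ± 0.09, adjusted p = 1.27e-11), and HSP90.1 had 6.68 and 10.8 CPM, against 16.1 and 19.3 CPM in WT (-0.98 ± 0.16, adjusted p = 5.43e-06). HSFA2, the heat shock factor that sustains the response, had 3 reads in the 2 mrg1 mrg2 libraries together and 35 in WT, a ratio of 0.0815 (95% exact interval 0.0160 to 0.258). HSP101, the disaggregase, fell by 0.53 and HSFA7A by 0.54. The call of HSP101 is lost without mrg1 mrg2 replicate 1 (-0.43), and that of HSFA7A without WT replicate 1 (-0.44), mrg1 mrg2 replicate 1 (-0.55) or mrg1 mrg2 replicate 2 (-0.54).

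Clock genes had 8 of 20 lower and the others not called (median -0.24). The seedlings grew in continuous light, so the labels fix no time of day. RVE2 had 111.0 and 107.0 CPM in mrg1 mrg2, against 161.0 and 152.0 CPM in WT (-0.48 ± 0.07, adjusted p = 1.05e-06), and GI, which links the clock to flowering, had 24.5 and 29.4 CPM, against 40.9 and 39.6 CPM in WT (-0.53 ± 0.10, adjusted p = 9.4e-05). Of 15 flowering genes tested, 3 were lower (GI, FLC and MAF5) and 1 (SVP) higher. FT and TSF, the florigen genes, were among the 5 listed genes that did not pass the filter. FLC, the floral repressor, had 6.27 and 3.82 CPM in mrg1 mrg2, against 10.4 and 8.68 CPM in WT (-0.87 ± 0.22, adjusted p = 0.00283). Its call is lost without WT replicate 1 (-0.73) or mrg1 mrg2 replicate 2 (-0.58). MAF5, a relative of FLC, had 1.46 and 0.982 CPM, against 4.66 and 4.02 CPM in WT (-1.77 ± 0.42, adjusted p = 0.00135). SVP rose by 0.25 ± 0.08 and is not called when any 1 of the 4 libraries is left out (0.22 to 0.27).

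Of 15 genes for enzymes that methylate or demethylate histone H3, 2 were lower (13.3%, against 12.2% of all genes tested). They were EFS (SDG8, which methylates lysine 36 of H3), by 0.28, and SDG2, which methylates lysine 4, by 0.25. The others were not called. EFS had 61.0 and 58.5 CPM in mrg1 mrg2, against 72.8 and 76.4 CPM in WT. Without WT replicate 2 (-0.25) or mrg1 mrg2 replicate 2 (-0.27) EFS was not called, and SDG2 was not called when any 1 of the 4 libraries was left out (-0.30 to -0.21).

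Several metabolic lists moved in parts. The last steps of anthocyanin synthesis rose: DFR had 15.8 and 18.9 CPM in mrg1 mrg2, against 6.69 and 6.35 CPM in WT (1.45 ± 0.18, adjusted p = 5.8e-08), and LDOX had 16.3 and 17.1 CPM, against 7.05 and 7.30 CPM in WT (1.26 ± 0.18, adjusted p = 1e-06). UF3GT and AT5MAT, which decorate anthocyanins, completed the 4 of 14 flavonoid genes that were higher (28.6%, against 12.3% of all genes tested). The 1 lower gene was F3H, an earlier step, at -0.28, and its call is lost without WT replicate 1 (-0.25) or mrg1 mrg2 replicate 2 (-0.24). Nitrate genes had 3 of 17 higher (17.6%, against 12.3% of all genes tested) and 9 lower (52.9%, against 12.2%). NRT2:1, a nitrate transporter and a marker of root uptake, was among the higher ones (1.94 ± 0.58), but it was close to the floor, with 0.836 and 2.62 CPM in mrg1 mrg2, against 0.359 and 0.529 CPM in WT, and is not called without WT replicate 1 (1.71), WT replicate 2 (2.25) or mrg1 mrg2 replicate 2 (0.90). Among the lower ones, NIA2, the main nitrate reductase, had 1240 and 1190 CPM in mrg1 mrg2, against 1680 and 1720 CPM in WT (-0.44 ± 0.04, adjusted p = 1.37e-10), and ASN1, a sugar-repressed asparagine synthetase, fell by 0.89 ± 0.10 but rose by 1.05 in the triple mutant over pif4 at 22 °C.

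Glucosinolate genes had 2 of 19 higher (10.5%, against 12.3% of all genes tested) and 6 lower (31.6%, against 12.2%). Without WT replicate 2 these were 1 and 3, without mrg1 mrg2 replicate 2 the higher count was 0, and without either other library it was 1. CYP79F1, which opens the aliphatic pathway, had 101 CPM in both mrg1 mrg2 libraries, against 140.0 and 137.0 CPM in WT (-0.41 ± 0.07, adjusted p = 1.47e-05). Jasmonate genes had 2 of 21 higher and 5 lower, and 3 lower without WT replicate 2 or mrg1 mrg2 replicate 2. With all libraries, 9.52% of the jasmonate list was higher and 23.8% lower, against 12.3% and 12.2% of all genes tested. OPR3, of jasmonate synthesis, rose by 0.52 ± 0.11, while the repressors TIFY7 (JAZ9) and JAZ1 fell by 0.55 and 0.79. Iron genes had 4 of 23 higher (2 without WT replicate 2 or mrg1 mrg2 replicate 2) and 5 lower. FER1, the iron store ferritin, had 122.0 and 127.0 CPM in mrg1 mrg2, against 199.0 and 191.0 CPM in WT (-0.60 ± 0.07, adjusted p = 5.65e-09), and ABCG37, which exports coumarins that mobilise iron, fell by 0.62 ± 0.07. Of 14 salicylate defence genes, edgeR's quasi-likelihood test and DESeq2 each called 0, and 1 was lower at an unadjusted p under 0.05. Seed storage transcripts were close to the floor: CRU3 had 0 reads in mrg1 mrg2 and 35 in WT, and CRA1 had 0.627 and 1.09 CPM, against 3.47 and 5.08 CPM in WT.

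The differences at 22 °C were then looked up in 3 comparisons that share none of the 4 libraries. At 28 °C, mrg1 mrg2 had 1344 genes higher (6.69%) and 1486 lower (7.4%) than WT. Without WT replicate 2 at 28 °C these were 713 and 857, without mrg1 mrg2 replicate 2 at 28 °C 886 and 964, and without mrg1 mrg2 replicate 1 at 28 °C the lower count was 986. Of the 2469 genes higher at 22 °C, 786 (31.8%) were also higher at 28 °C and 10 were lower. Of the 2449 genes lower at 22 °C, 845 (34.5%) were also lower at 28 °C and 26 were higher. These make up 58.5% of the higher and 56.9% of the lower genes at 28 °C. Ribosomal protein genes rose again, 112 of 273 against 6.69% of all genes, while 1 mitosis gene was higher and 5 of 27 root hair genes were lower.

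Without PIF4 the overlap was smaller. In the triple mutant at 22 °C, 656 genes were higher (3.27%) and 626 lower (3.12%) than in pif4. Leaving out any 1 of those 4 libraries brought these counts to 247 to 357 and 252 to 341, the lowest without pif4 replicate 2 and without triple mutant replicate 1. They included 242 (9.80%) of the genes higher in mrg1 mrg2, with 81 lower, and 265 (10.8%) of the genes lower in mrg1 mrg2, with 57 higher. At 28 °C, the triple mutant had 680 genes higher (3.39%) and 1211 lower (6.03%) than pif4. Leaving out any 1 of those 4 libraries brought the higher count to 368 to 393, and the lower count was 722 without pif4 replicate 2, 732 without triple mutant replicate 1 and 763 without triple mutant replicate 2. They included 204 (8.26%) of the higher genes, with 219 (8.87%) lower, and 415 (16.9%) of the lower genes, with 73 higher. The median log2 change of the 2469 higher genes was 0.454 in mrg1 mrg2 at 22 °C, 0.197 at 28 °C, and 0.021 and 0.012 in the triple mutant at 22 °C and 28 °C. In the triple mutant over pif4 at 22 °C, 14 of 273 ribosomal protein genes and 1 of 25 mitosis genes were lower and the others were not called.

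**Figure D3:**
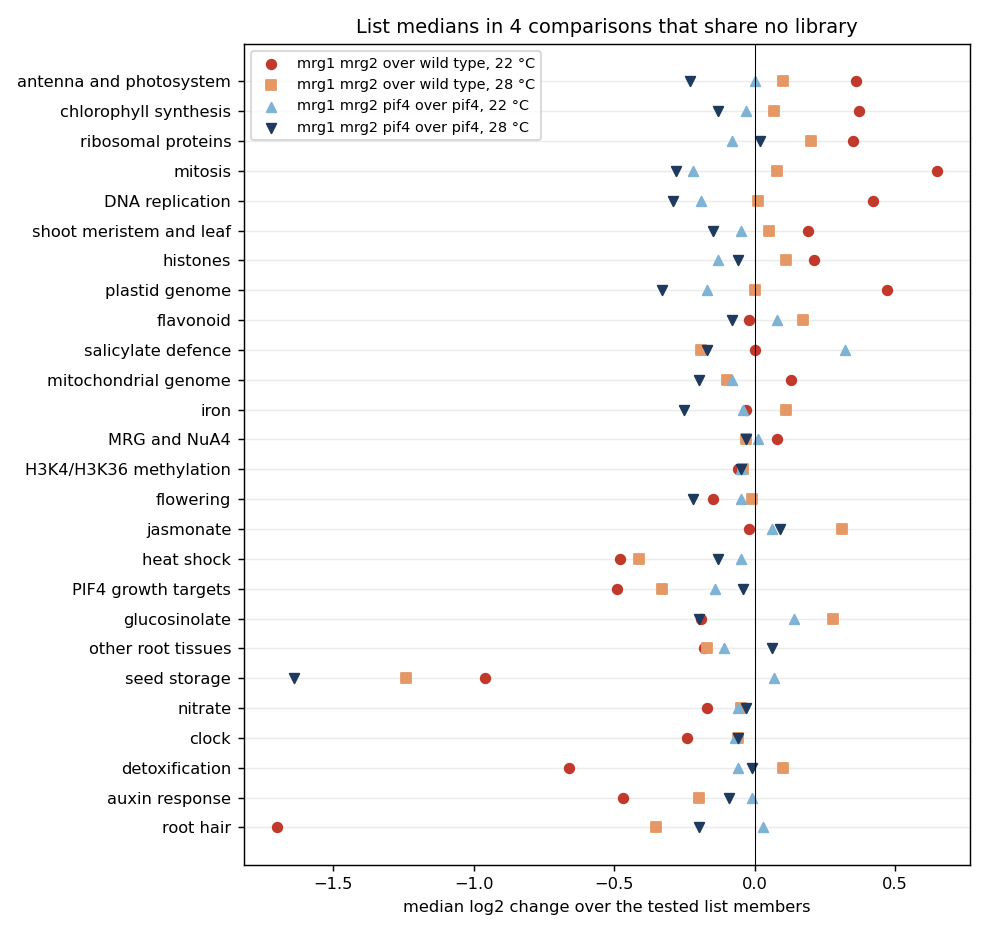
Median log2 change of each gene list in 4 comparisons that share no library: mrg1 mrg2 over WT at 22 °C and 28 °C, and mrg1 mrg2 pif4 over pif4 at 22 °C and 28 °C. The root hair median was -1.70 in the first of these and 0.03 in the triple mutant over pif4 at 22 °C, and the mitosis median was 0.65 and -0.22.

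The change between the conditions was tested directly. The effect of mrg1 mrg2 at 28 °C minus that at 22 °C was called positive for 475 genes (2.37%) and negative for 490 (2.44%). Without 1 library the positive count was 309 at the lowest (without WT replicate 1 at 22 °C) and the negative count 269 (without WT replicate 2 at 22 °C), 274 and 300 (without mrg1 mrg2 replicate 1 or 2 at 22 °C), 309 (without WT replicate 1 at 22 °C) and 312 (without WT replicate 1 at 28 °C). Of the 27 root hair genes 16 were positive, COW1 among them, which was not called at 22 °C (-0.02). Of the 28 detoxification genes 13 were positive, among them GSTF6, which was higher at 22 °C (1.46), and GSTF7, which was not called there (0.03). WT itself had a summed root hair level of 279.0 and 248.0 CPM at 28 °C, and mrg1 mrg2 had 224.0 and 200 CPM. Antenna and photosystem genes (24 of 33), chlorophyll genes (13 of 21) and mitosis genes (9 of 25) were negative. WT itself differed between the temperatures in these lists. Its summed antenna level was 68700 and 66700 CPM at 22 °C and 92700 and 87900 CPM at 28 °C. That of mrg1 mrg2 was 79300 and 76100 CPM, then 90300 and 93100 CPM. For chlorophyll genes WT had 7420 and 7360 CPM, then 8980 and 8470 CPM, and mrg1 mrg2 9440 and 8980 CPM, then 9500 and 8860 CPM. For mitosis genes WT had 309 and 319 CPM, then 406 and 372 CPM, and mrg1 mrg2 498 and 480 CPM, then 424 and 394 CPM.

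The effect in the pif4 background minus that in the WT background, at 22 °C, was called positive for 1228 genes (6.12%) and negative for 1417 (7.06%), with 801 positive without pif4 replicate 2. The differences by background and by temperature both subtract the change of mrg1 mrg2 over WT at 22 °C, so they are not independent. Negative by background were 177 of 273 ribosomal protein genes, 18 of 25 mitosis genes, 29 of 33 antenna and photosystem genes and 19 of 21 chlorophyll genes. Root hair genes were positive in 23 of 27. pif4 itself differed from WT in the direction of mrg1 mrg2 for these lists, with 88 of the 273 ribosomal, 18 of the 25 mitosis, 32 of the 33 antenna and 19 of the 21 chlorophyll genes higher and 22 of the 27 root hair genes lower. PORB changed by 0.86 in the WT background and by 0.14 in the pif4 background, and the difference was -0.72 ± 0.07 (adjusted p = 2.47e-10). The splits of these calls depend on the scaling. With library totals alone, the triple mutant had 790 genes higher and 223 lower than pif4 at 22 °C, and 1631 higher and 384 lower at 28 °C, where the median of all genes moved to 0.131. mrg1 mrg2 then had 1298 genes higher and 929 lower than WT at 28 °C, and 1400 higher and 940 lower than pif4 at 22 °C, while pif4 had 558 higher and 1385 lower than WT. The difference by temperature became 502 positive and 113 negative, and that by background 1618 and 694. The lists kept their directions in that test of background (106 of 273 ribosomal, 16 of 33 antenna, 13 of 21 chlorophyll and 16 of 25 mitosis genes negative), whereas by temperature 3 of 33 antenna and 2 of 21 chlorophyll genes were still called negative.

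A small set of genes moved the same way in all 4 comparisons without shared libraries: 102 were higher (0.508%) and 151 lower (0.752%) in each. Without pif4 replicate 2 at 22 °C the higher set held 65 genes, and the lower set held 88 without triple mutant replicate 1 and 95 without pif4 replicate 1, both at 22 °C. SADHU5-1, a pseudogene of the Sadhu family of retroelements (chromosome 4, 660810 to 661698), had 14.1 and 14.2 CPM in mrg1 mrg2, against 2.99 and 2.54 CPM in WT, and 14.4 and 13.4 CPM in the triple mutant, against 2.23 and 2.86 CPM in pif4. Its log2 changes were 2.40 and 2.57 in mrg1 mrg2 at 22 °C and 28 °C and 2.37 and 1.94 in the triple mutant. AT4G04410, also annotated as a pseudogene, had 56.0 and 52.1 CPM in mrg1 mrg2, against 14.8 and 17.7 CPM in WT, and rose by 1.77, 1.99, 1.71 and 1.55 in the same order. For neither gene did the difference between the WT and pif4 backgrounds pass the test.

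Protein-coding genes in the higher set included ACD6, an ankyrin protein that promotes salicylate defence (21.2 and 18.0 CPM in mrg1 mrg2, against 8.96 and 8.15 CPM in WT), DML3, a DNA demethylase (7 and 6.87 CPM, against 2.39 and 3.92 CPM in WT), and AT3G60110, a bromodomain protein (18.6 and 19 CPM, against 10 and 7.41 CPM in WT). MRU1 and AT5G35480 lie next to each other on chromosome 5 and rose by 1.24 and 1.53. Genes that are not protein coding made up 15 of the 102 (14.7%), against 2.53% of all genes tested: 7 pseudogenes, 4 transcribed pseudogenes, 3 ncRNAs and 1 miRNA precursor (MIR850). Over the whole comparison at 22 °C, 28 of 122 pseudogenes were higher in mrg1 mrg2 and 8 lower, against 12.3% and 12.2% of all genes tested. Of 99 transcribed pseudogenes 8 were higher and 6 lower, of 98 ncRNAs 9 and 5, and of 145 lncRNAs 5 and 0. Genes that are not protein coding made up 2.15% of all genes higher at 22 °C, against 2.53% of all genes tested.

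In the lower set, UBC8, a ubiquitin-conjugating enzyme, had 183.0 and 187.0 CPM in mrg1 mrg2, against 380.0 and 381.0 CPM in WT (-1.0 ± 0.07, adjusted p = 8.66e-14), and fell by 0.83, 0.81 and 0.68 in the other comparisons. BGLU16, a beta-glucosidase, had 18.4 and 19.4 CPM, against 42.2 and 44.5 CPM in WT (-1.16 ± 0.10, adjusted p = 1.33e-11). SULTR2;1, a sulfate transporter of the vasculature, had 70.6 and 61.7 CPM, against 118.0 and 132.0 CPM in WT (-0.88 ± 0.08, adjusted p = 1.46e-11). FLC belonged to this set as well and fell more in the triple mutant over pif4 (-1.56 at 22 °C and -1.87 at 28 °C) than in mrg1 mrg2 over WT (-0.87 and -1.0), a difference that did not pass the test at 22 °C. FLC was itself higher in pif4 than in WT at 22 °C, by 0.58 (adjusted p = 0.0361). FDM2, of RNA-directed DNA methylation, PRXCA, a peroxidase, FAR5, of suberin synthesis, and EFS were also lower in all 4. With MRG1 and MRG2 themselves left out, genes within 1 Mb of either made up 6.71% of the lower set (10 of 149) and 5.88% of the higher set (6 of 102), against 4.18% of all genes tested, and the part of linked DNA in these changes was not tested.

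**Figure D4:**
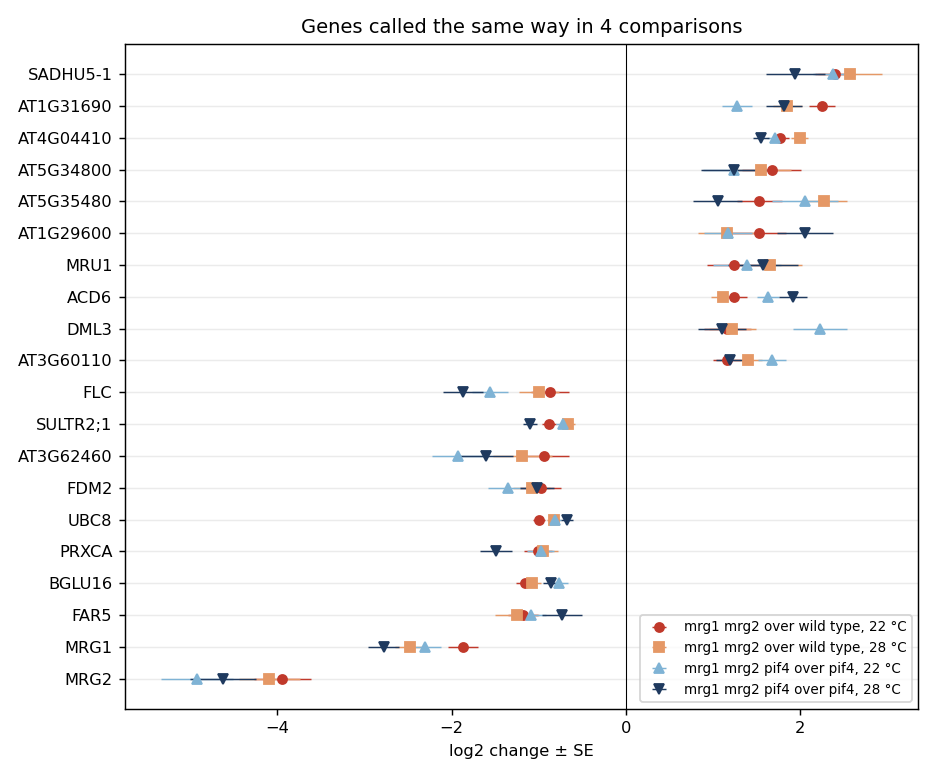
Log2 change ± SE of 20 genes called the same way in all 4 comparisons, with mrg1 mrg2 over WT at 22 °C and 28 °C and mrg1 mrg2 pif4 over pif4 at 22 °C and 28 °C as separate symbols. SADHU5-1, at the top, ranged from 1.94 to 2.57, and UBC8 from -1.0 to -0.68.

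Promoter motifs were counted from 250 bases before to 50 after the start of 19921 tested genes, on both strands, and no motif contains another. Site II (TGGGCC) was present in 29.1% of promoters of genes higher in mrg1 mrg2 at 22 °C, in 9.81% of those of lower genes and in 18.7% of all, and the telo-box (AAACCCTA) in 9.49%, 2.90% and 5.40%. The G-box differed little, at 8.30%, 8.50% and 8.79%, and the I-box was present in 17.7%, 15.4% and 14.9%. The MSA core, by the letters CCAACGG alone, was found in 3.57%, 1.96% and 2.17%, and the E2F site in 0.986%, 0.450% and 0.818%. A heat shock element (GAA, TTC and GAA, each 2 free bases apart) was found in 0.657%, 0.654% and 0.552%. By list, site II was in 55.3% and the telo-box in 36.6% of ribosomal protein promoters. The MSA core was in 32.0% of mitosis promoters and the E2F site in 36% of replication promoters. Of antenna and photosystem promoters, 51.5% held the I-box and 33.3% the G-box. Of the 102 genes higher in all 4 comparisons, 9.80% held site II. These shares describe letters in a window and say nothing of which factor is bound.

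**Figure D5:**
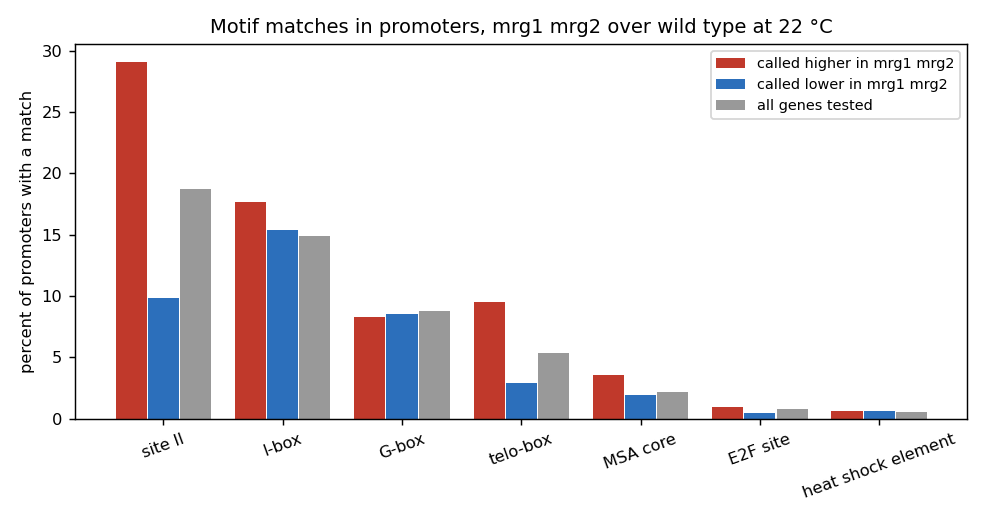
Percent of promoters (250 bases before to 50 after the start) with at least 1 match to each motif, for genes called higher in mrg1 mrg2, genes called lower and all genes tested. Site II reached 29.1%, 9.81% and 18.7%, while the G-box lay between 8.30% and 8.79% in all 3 sets.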

How the data were processed

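Seedling RNA was sequenced in 16 libraries, 2 for each of 8 groups, made with a Tiangen RNA kit and a KAPA stranded mRNA kit, per the labels' protocols. The build TAIR10 and the tools featureCounts, SAMtools, HISAT2 and cutadapt are given in the submitters' processing notes. How these were set, strand included, is not given in the sources used here, so reads of overlapping genes on opposite strands and of near-identical copies may be shared. The deposited values are raw counts of reads for each gene that the authors did not normalize. All 16 columns were used, and 0 lines lacked a gene.

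Counts were tested with edgeR 4.0.16 in R 4.3.3: TMM scaling after filterByExpr by group, with a minimum count of 10 and a minimum total of 15, and 1 quasi-likelihood fit (glmQLFit with legacy = FALSE) of all 16 libraries by group, with 8 residual degrees of freedom and no replicate term. Each of 8 comparisons used the two-sided glmQLFTest with Benjamini-Hochberg adjustment over 20075 genes, and a gene is called at an adjusted p under 0.05. The SE is the log2 change divided by the square root of F. CPM are counts per 1000000 counts of the library, and precision is limited by 2 libraries a group. On data simulated for mrg1 mrg2 over WT at 22 °C (19963 genes fitted, 200 of them changed), the fit recovered 46.3% of 1.5-fold, 88.1% of 2-fold and 100% of 4-fold changes. It also called 11 of the 19763 unchanged genes. Far fewer genes were changed there than were called in the data, so these rates need not hold for the data. DESeq2 1.42.0 was an alternative. Intervals and floors cover counting error only.

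The genes and lists were chosen with earlier results of these data known. The named genes follow a rule, of which the text names a part: MRG1, MRG2 and PIF4, the 10 largest called changes per direction whose libraries do not overlap at 5 CPM or more, the genes called in the 4 comparisons without shared libraries or over both WT and pif4 with the largest smallest change (10 and 8 per direction), and up to 5 members per list with the smallest p. RHD2, RSL2, RSL4, RHD6, GSTF6, GSTU25, AT2G21640, IAA19, HSFA7A, LHB1B1, LHB1B2, NRT2:1, HAM1, HAM2, AT4G40040, EMB3113, AT1G18540 and CYC1BAT, and the further members listed to account for small counts, were chosen after their values were seen. Names, positions and sequences came from RefSeq (TAIR10.1), in which 32835 of the IDs have an entry. Deviations of same-numbered libraries of different groups correlated weakly across genes (-0.0098 to 0.0685), so the numbers were not taken as pairs, although replicate 2 had the higher share of AT3G41768 and of mitochondrial counts in 8 of 8 groups and of plastid counts in 7.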

Additional observations from a re-analysis of the deposited data

Results flagged for a closer look

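Differences between 2 changes of the same mutations, each by edgeR's quasi-likelihood test of the difference with adjustment over all 20075 genes at a threshold of 0.05, flagged the genes below. All values are on the log2 scale. Those for the pif4 background are the change of mrg1 mrg2 pif4 over pif4 minus the change of mrg1 mrg2 over WT, both at 22 °C. Those for temperature are the change of mrg1 mrg2 over WT at 28 °C minus that at 22 °C. A value opposite in sign to the change at 22 °C means that the change was smaller, absent or turned round. Both differences subtract the change of mrg1 mrg2 over WT at 22 °C, so they share its libraries and are not independent. Many genes below were named for a large change or a small p-value there, which by itself favours differences of the opposite sign.

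For root hair and related wall genes both differences were positive. They were 3.63 by background and 3.19 by temperature for FLA6, 2.48 and 2.54 for XTH13, 2.66 and 1.63 for XTH26, 1.99 and 1.80 for PRP3, 1.84 and 1.27 for XTH14, 1.77 and 1.5 for AT4G26010, and 1.73 and 1.54 for RHS13. By background alone they were 2.04 for PRP1, 1.02 for RHD2, 2.15 for AT1G19900 and 0.71 for ESB1. WT itself had a summed root hair level of 279.0 and 248.0 CPM at 28 °C and of 546.0 and 540.0 CPM at 22 °C.

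Among the genes with the largest changes, the difference by background was -8.89 for MRD1, -1.67 for HEI10, -2.63 for ACC2, -0.98 for AT1G31690, 3.86 for UGT73C1 and 5.35 for ChlAKR. For MRD1, UGT73C1 and ChlAKR it goes with pif4 standing at the level of mrg1 mrg2. The value of MRD1 rests on 1 read in WT and those of ChlAKR and UGT73C1 on pif4 and mrg1 mrg2 levels near or under the floor of 3 counts a library. These 3 fitted values depend on the prior count and are neither sizes nor bounds.

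For ribosomal protein genes the difference by background was -0.57 for RPS6, -0.60 for EMB2296, -0.45 for PSRP3/1, -0.53 for EMB3113 and -0.54 for AT1G18540. By temperature it was -0.31 for PSRP3/1 and -0.39 for EMB3113.

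For cell division genes the differences by background and by temperature were -1.24 and -1.10 for HIK, -1.06 and -0.85 for SYP111, -1.27 and -1.13 for TPX2, -0.96 and -0.72 for CYC1BAT, -0.90 and -0.50 for PRL, and -0.88 and -0.66 for MCM6, and for MCM5 -0.60 by background. For histone genes they were -0.74 and -0.46 for HTB2, -0.97 and -0.67 for HTA11, -0.80 and -0.40 for AT1G09200, and 1.73 and 1.27 for HIS1-3.

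For photosynthesis genes they were -0.54 and -0.25 for LHCB2.2, -0.36 and -0.29 for PSAF, -0.24 and -0.26 for PSBQ-2, -0.41 and -0.23 for LHB1B2, -0.77 and -0.59 for LHB1B1, -0.72 and -0.67 for PORB, -0.63 and -0.38 for GSA2 and -1.31 and -0.70 for ATCG00780. For shoot genes they were -0.75 and -0.55 for PDF1, and -1.03 by background for AN3.

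For detoxification genes they were 1.74 and 1.69 for CYP81D11, 1.04 and 1.04 for OPR1 and 0.42 and 0.40 for GSTU19, and for GSTF6, which was higher in mrg1 mrg2, 0.85 by temperature. For auxin and growth genes they were 0.50 and 0.29 for IAA16, and by background 0.53 for AXR3 and 0.57 for XTH15. For heat shock genes they were 0.71 and 0.45 for HSP70, and 1.02 by temperature for HSP90.1. RVE2 differed by 0.64 with temperature and GI by 0.44 with background.

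In metabolism, FER1 differed by 0.64 with background and 0.98 with temperature, and was higher in mrg1 mrg2 than in WT at 28 °C (0.37). ASN1 differed by 1.95 and 0.61, and CYP79F1 by 0.38 and 0.60. DFR and LDOX differed by -1.08 and -1.20 with background, and CRA1 by 2.02. NIA2 and TIFY7 differed by 0.25 and 0.77 with temperature.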

How the results depend on the processing

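Of the counts over all genes, those of mrg1 mrg2 over WT at 22 °C stayed within 1.5 times under every alternative that kept all libraries. They were 2376 higher and 2569 lower with DESeq2's size factors, 1852 and 2642 with library totals alone, 2385 and 2359 with no filter, 2429 and 2516 without AT3G41768, 2663 and 2596 in a fit of the 4 libraries alone, and 1650 and 1756 with DESeq2. The replicate block gave 2654 and 2602 and kept all 2469 of the higher and 2445 of the lower genes. The numbers were not taken as pairs, and this block takes up the higher rRNA and mitochondrial shares of replicate 2.

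Library totals alone moved 9 other counts: mrg1 mrg2 over WT at 28 °C, 929 lower; triple mutant over pif4, 223 lower at 22 °C, and 1631 higher and 384 lower at 28 °C; mrg1 mrg2 over pif4, 940 lower; pif4 over WT, 558 higher; the difference by temperature, 113 negative, and by background, 694 negative; all 4 comparisons, 54 lower. With DESeq2, mrg1 mrg2 over WT at 28 °C had 784 higher and 972 lower, the triple mutant over pif4 325 higher and 368 lower at 22 °C and 339 higher at 28 °C, mrg1 mrg2 over pif4 763 higher, and pif4 over WT 763 higher and 611 lower. DESeq2 also gave 287 positive by temperature and 736 positive by background, 53 higher in all 4 comparisons and 470 higher over both WT and pif4. Among the lists in mrg1 mrg2 over WT at 22 °C, it moved by over 1.5 times the counts of higher plastid genes (12) and iron genes (2), and of lower auxin response genes (9) and PIF4 growth genes (3). The same held for these counts of 1 to 3 genes: glucosinolate 1 higher, H3K4/H3K36 methylation 1 lower, ribosomal 1 lower, and 0 higher for flowering, MRG and NuA4, PIF4 growth and other root tissues. The cause was not tested.

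Leaving out 1 of the 16 libraries at a time, counts ranged as follows. mrg1 mrg2 over WT had 1637 to 2530 higher and 1669 to 2507 lower at 22 °C, and 713 to 1404 higher and 857 to 1511 lower at 28 °C. The triple mutant over pif4 had 247 to 678 higher and 252 to 716 lower at 22 °C, and 368 to 687 higher and 722 to 1261 lower at 28 °C. mrg1 mrg2 over pif4 had 730 to 1402 higher and 914 to 1608 lower, and pif4 over WT 692 to 1271 higher and 501 to 1038 lower. The difference by temperature was positive in 309 to 494 and negative in 269 to 493, and that by background positive in 801 to 1251 and negative in 1025 to 1477. All 4 comparisons shared 65 to 89 higher and 88 to 152 lower genes, and 472 to 862 were higher and 632 to 1086 lower over both WT and pif4. A library left alone in its group is assumed to vary like the other groups. No named gene that was called in mrg1 mrg2 over WT at 22 °C changed sign there under any alternative. With 2 libraries a group small differences may be missed, and genes near 3 counts a library cannot be ranked.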
